A study of Mus musculus with 4 samples.

Results

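Endothelial cells of the early headfold (EHF) mouse embryo were examined in 1 single-cell RNA library. A cell was taken as endothelial when at least 1 unique molecular identifier (UMI, 1 captured transcript) was counted for 3 or more of the 7 endothelial markers *Kdr*, *Etv2*, *Cdh5*, *Pecam1*, *Tie1*, *Tek* and *Esam*. It also had to hold no UMI of the erythroid factor *Gata1* and less than 1% of its UMIs in the embryonic globins *Hbb-bh1*, *Hba-x* and *Hbb-y*. This rule found 51 of the 3494 EHF cells, or 1.46% (exact binomial 95% interval 1.09 to 1.91%). The series holds 11123 cells in all. Since the cells were chosen by their measured counts of these genes, the levels of the 11 rule genes are given as a description only.

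Endothelium arises from mesoderm when cells switch on the ETS factor *Etv2* and the receptor *Kdr*, which binds vascular endothelial growth factor (VEGF). The first vessels form in the yolk sac beside primitive erythroid cells, and both lineages share regulators such as *Tal1* and *Lmo2*. As vessels mature, endothelial cells build junctions with *Cdh5* and *Esam* and signal through the angiopoietin receptor *Tek* and its relative *Tie1*, while *Etv2* is switched off.

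The library was made from embryos of the genotype T nEGP-CreERT2/+; R26R tdTomato/tdTomato, pooled before dissociation, so that a cell cannot be assigned to its embryo. In these mice the *T* locus, active in the primitive streak, drives a tamoxifen-dependent Cre, and tdTomato marks the cells in which Cre acted and their descendants. EHF embryos were dissected at E7+14h, 7 h after the mother received tamoxifen (0.08 mg per body weight) by gavage at E7+7h. Earlier libraries of the same genotype came from mid-to-late streak embryos (MS-LS, E6+21h, 16 h after tamoxifen) and from no-bud to early-bud embryos (OB-EB, E7+3h, 6 h after it). Animals without Cre or without tamoxifen were not analysed here.

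Each stage was 1 library, so no test between groups was possible and the intervals given here cover counting error only. The deposited tables held 3494 EHF cells, 3635 MS-LS cells and 3994 OB-EB cells, with medians of 5584, 4251 and 2620.5 UMIs per cell. A second EHF table held the same counts and was not added. The libraries shared between 12 and 18 cell barcodes in each pair. Endothelial cells had a median of 5888 UMIs (2695 to 36920) against 5576 in the 3443 other EHF cells. The deepest endothelial cell was also the deepest cell of the library and held 10.0% of all endothelial UMIs. Of the 51 cells, 5 were among the 175 cells with the highest doublet scores (Scrublet), a share of 9.80% where the library has 5%.

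The rule markers were unevenly detected. *Kdr* (chr5:75932827-75978458, minus strand, GRCm38) was counted in 45 of the 51 cells and *Etv2* (chr7:30633616-30635852, minus strand) in 41, and 38 cells had both. *Tek* was detected in 26 cells, *Esam* in 23, *Pecam1* in 21, *Cdh5* (VE-cadherin) in 13 and *Tie1* in 7. Most positive cells held few transcripts: the median positive cell had 2 UMIs of *Kdr*, 2 of *Etv2* and 1 of each of the other markers. Summed over the cells, *Kdr* stood at 363 UMIs per 1000000 (CPM, interval 305 to 430) and *Etv2* at 255 CPM (206 to 312). These counts come from transcript ends and were not divided by length. *Tek* reached 94.9 CPM, *Esam* 78.7, *Pecam1* 62.4, *Cdh5* 43.4 and *Tie1* 19.0. *Kdr* and *Etv2* thus stood above the junction and angiopoietin pathway markers. This order is a description only, since the rule chose on these genes. Of the 33 cells with exactly 3 markers, 23 held both *Kdr* and *Etv2*. Of the 51 cells, 20 held no UMI of *Cdh5*, *Pecam1* or *Tie1*, and 5 held both *Cdh5* and *Pecam1*.

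As a description, since the rule used it, *Etv2* was detected in 10.7% of the other EHF cells and in 16.6% of 296 extraembryonic ectoderm cells (at least 3 of *Elf5*, *Rhox6*, *Rhox9*, *Wfdc2*, *Ascl2* and *Tex19.1*, at most 1 endothelial marker), a type that should lack it, where the median was 7632.5 UMIs per cell. After every cell had been thinned to 2000 UMIs, *Etv2* was found in 41.2% of endothelial cells (27.6 to 55.8%), 6.51% of extraembryonic ectoderm cells and 5.01% of all other cells. *Kdr* was found in 56.9%, 0.685% and 1.95% of the same groups. No thinned extraembryonic ectoderm cell held *Cdh5*, *Pecam1*, *Tie1*, *Tek* or *Esam* (0 of 292 for each). The group was allowed at most 1 of the 7 markers, so its low shares follow in part from that choice and give no background rate. For thinning, 309 other cells with fewer UMIs were left out and no endothelial cell was.

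Cells on either side of the threshold were compared as a description. Just inside were 33 cells with exactly 3 markers, and 76 cells with 2 markers, no *Gata1* and few globins lay just outside. Of those 76 cells, 68 held *Kdr* and 66 *Etv2*, so by the rule few of them could hold another marker. The cells just outside had 340 CPM of *Etv2* and 244 CPM of *Kdr*, near or above the 229 and 292 CPM of the cells just inside, but 10.6 against 85.4 CPM of *Tek* and 10.6 against 58.4 CPM of *Esam*. *Lmo2* stood at 182 CPM outside, 328 CPM in cells with 3 markers and 602 CPM in the 18 cells with 4 or 5. *Hand1*, a factor of extraembryonic and lateral mesoderm, ran the other way, with 260 CPM outside, 162 CPM with 3 markers and no UMI with 4 or 5. A further 7 cells met the marker count but held *Gata1*. The globin limit removed none, and the highest globin share among the 51 cells was 0.0448%.

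**Figure D1:**
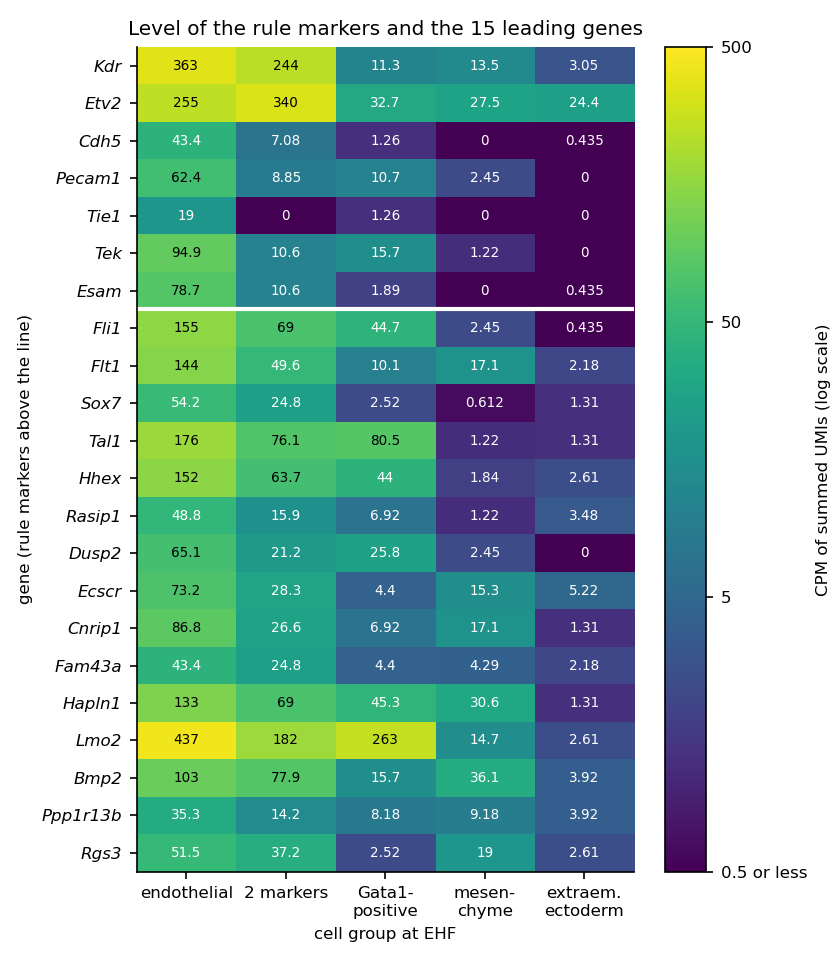
Level in CPM (log colour scale, value printed in each box) of the 7 rule markers and the 15 leading genes outside the rule in 5 groups of EHF cells: endothelial cells, cells with 2 markers, other *Gata1*-positive cells, extraembryonic mesoderm and mesenchyme cells, and extraembryonic ectoderm cells. *Lmo2* stands at 437 CPM in endothelial cells and 263 CPM in *Gata1*-positive cells, and at 14.7 CPM in mesenchyme cells.

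Genes outside the rule were compared between the endothelial cells and all other EHF cells, as the log2 ratio of CPM from summed UMIs. Among genes with at least 100 UMIs in all and a UMI in at least 20% of the endothelial cells, *Fli1* and *Flt1* had the largest ratios. *Fli1* (chr9:32422204-32542861, minus strand), an ETS factor of endothelium and blood, had 57 UMIs in 26 of the 51 cells, with at most 7 in a cell, or 155 CPM against 8.15 CPM in the other cells (log2 ratio 4.25, interval 3.78 to 4.69). *Flt1* (chr5:147561604-147726011, minus strand), the VEGF receptor that limits signalling through *Kdr*, had 53 UMIs in 29 cells, or 144 against 7.70 CPM (4.22, 3.74 to 4.68). A UMI of *Fli1* was held by 51.0% of endothelial cells and 3.31% of other cells, and *Flt1* was found in 56.9% of endothelial cells.

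Among the 15 leading genes were several regulators of haemato-endothelial fate. *Lmo2* (chr2:103957986-103981878, plus strand), a bridging factor of the Tal1 complex, had the highest level, with 161 UMIs in 40 cells, a median of 3 and a maximum of 9 per cell, and 437 against 51.8 CPM (3.07, 2.83 to 3.32). *Tal1* itself (chr4:115056426-115071755, plus strand) was found in 31 cells at 176 against 13.5 CPM (3.71, 3.29 to 4.10). *Hhex*, a homeobox factor of endothelium and endoderm, was found in 30 cells at 152 against 12.5 CPM (3.604, 3.16 to 4.03). *Sox7*, a SoxF factor of endothelium, was found in 17 cells at 54.2 against 4.05 CPM (3.74, 2.96 to 4.46). Leaving out the cell with most UMIs of each gene gave 3.03 for *Lmo2*, 3.65 for *Tal1*, 3.55 for *Hhex* and 3.62 for *Sox7*.

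Detection of the regulators was then compared cell by cell. *Tal1* and *Lmo2* were both counted in 28 cells, *Lmo2* alone in 12, *Tal1* alone in 3 and neither in 8. *Etv2* was counted with *Tal1* in 25 cells, without it in 16. At 2000 UMIs per cell, *Lmo2* was detected in 52.9% of endothelial cells, 34.0% of other *Gata1*-positive cells, 1.85% of mesenchyme cells and 0.685% of extraembryonic ectoderm cells. *Tal1* was detected in 41.2% and *Fli1* in 27.5% of endothelial cells, and neither in any of the 292 thinned extraembryonic ectoderm cells. *Egfl7* was less restricted, in 54.9% of endothelial cells but also 13.7% of extraembryonic ectoderm cells.

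The other leading genes followed. *Ecscr*, an endothelial surface protein, had a log2 ratio of 3.47 (2.82 to 4.08) and *Rasip1*, a Rap1 effector needed for vessel lumens, one of 3.56 (2.73 to 4.30). *Bmp2*, a ligand of the BMP pathway, stood at 103 against 13.04 CPM (2.98, 2.45 to 3.48) with a UMI in 26 cells. *Hapln1*, which links hyaluronan to proteoglycans in the matrix, stood at 133 against 14.3 CPM (3.22, 2.75 to 3.66). *Dusp2*, a MAP kinase phosphatase, had a ratio of 3.55, and *Rgs3*, which ends G protein signals, one of 2.92. *Cnrip1*, *Fam43a* and *Ppp1r13b* completed the 15 with 3.36, 3.27 and 2.95. Without the top cell of each gene the 15 ratios ran from 2.77 to 4.12.

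**Figure D2:**
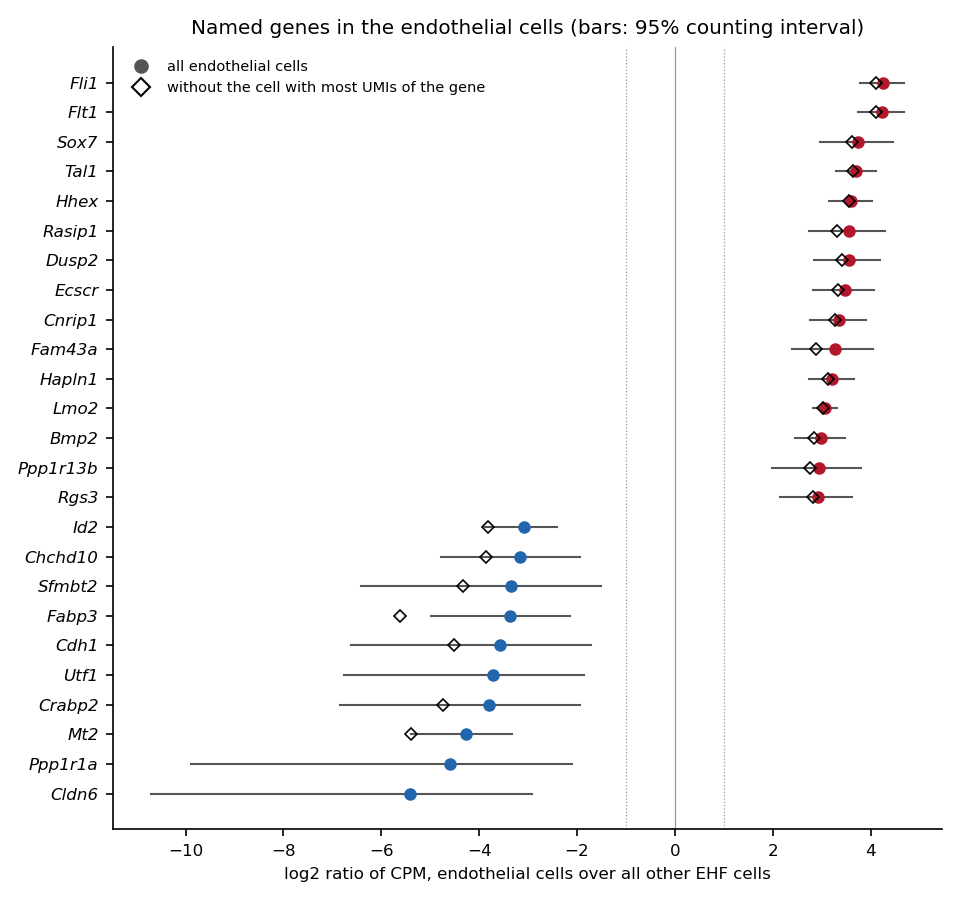
Log2 ratio of CPM of endothelial cells over all other EHF cells (x axis) for the 15 genes with the largest and the 10 with the smallest ratio (y axis). Bars are 95% counting intervals, open diamonds leave out the endothelial cell with most UMIs of the gene, and *Cldn6*, *Ppp1r1a* and *Utf1*, counted in 1 endothelial cell each, have no diamond. The higher genes lie between 2.92 and 4.25 and the lower genes between -5.41 and -3.09.

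RefSeq promoter windows of 300 bases (GRCm38.p6, from 250 bases before to 50 after the start that RefSeq gives, which differs from the GENCODE start of some genes) were found for 10 of the 15 leading genes. None of the 10 held CCGGAAG, 1 fixed form of the ETS motif, on either strand, and 2 held GATAAG, 1 form of the GATA motif. Of all 32851 windows, 8.86% hold the first and 7.44% the second. These are rates per window, some genes have 2 windows, and 10 genes are too few to set against them. Other forms of either motif were not searched, so these promoters cannot be said to lack ETS sites. Promoters are shown for *Flt1*, the leading gene of this set (chr5:147725962-147726261, minus strand), and for *Ppp1r13b*, whose single window holds GATAAG on the opposite strand, in capitals (chr12:111908006-111908305, minus strand). The matches describe the letters in these windows only.
*Flt1*: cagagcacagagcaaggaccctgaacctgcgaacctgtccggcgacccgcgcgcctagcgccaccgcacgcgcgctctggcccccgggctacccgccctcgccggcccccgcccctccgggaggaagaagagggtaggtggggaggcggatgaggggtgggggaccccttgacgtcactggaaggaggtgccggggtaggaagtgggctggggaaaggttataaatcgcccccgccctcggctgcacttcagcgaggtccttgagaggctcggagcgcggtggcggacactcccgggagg
*Ppp1r13b*: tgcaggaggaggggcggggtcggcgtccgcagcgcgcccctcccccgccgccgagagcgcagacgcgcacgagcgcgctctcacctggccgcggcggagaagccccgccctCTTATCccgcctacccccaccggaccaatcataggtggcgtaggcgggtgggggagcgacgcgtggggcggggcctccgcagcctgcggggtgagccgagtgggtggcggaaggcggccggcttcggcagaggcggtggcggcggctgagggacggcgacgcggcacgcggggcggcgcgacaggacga

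Lists of genes were then followed, each described by its summed UMIs over all genes in the table and by its members with at least 10 CPM over all EHF cells. This limit, which does not favour genes for being high in endothelial cells, left 7437 genes, of which 3.31% were at least 2-fold higher and 11.1% at least 2-fold lower in endothelial cells, with a median log2 ratio of -0.07. With the limit set in either group, 8.02% of 8179 genes were higher and 10.2% lower, and the median was -0.01. The second limit admits genes that only the endothelial cells carry past 10 CPM, and 4 UMIs in those cells are enough for that.

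The 26 haemato-endothelial transcription factors summed to 1587 CPM in endothelial cells and 312 CPM in the others (log2 ratio 2.35, 2.22 to 2.47). The ratio was 2.15 without *Lmo2*. Of 14 members at 10 CPM over all cells, 9 were at least 2-fold higher and none lower, with a median of 1.88. *Ets2* (103 against 18.9 CPM, 2.44) and *Gata2* (67.8 against 19.9 CPM, 1.77), factors of blood and vessel development, were among them. *Erg* and *Sox18*, later endothelial regulators, rested on 4 UMIs each. *Sox17*, an arterial and endodermal factor, had 0.65 (-0.42 to 1.55) and *Mef2c* had -0.47 (-2.35 to 0.90), so neither interval excluded equal levels.

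Membrane and junction genes of endothelium were rarer. The 29 genes in the table summed to 947 against 131 CPM (2.85, 2.69 to 3.01), and 4 of them had no UMI in endothelial cells. *Egfl7*, a secreted endothelial matrix factor, carried most of these counts, with a UMI in 44 cells, a median of 3 and 486 against 71.3 CPM (2.77, 2.53 to 2.99). Without it the list stood at 2.94. *Ramp2*, the co-receptor for adrenomedullin, was found in 29 cells at 160 against 23.0 CPM (2.80, 2.38 to 3.19). These 2 genes were the only members at 10 CPM over all cells, and both were over 2-fold higher. *Ecscr* had 27 UMIs, *Tspan18* 11 and *Plvap* 10, and the other members with a UMI had 1 to 9, among them *Icam2* with 8, *Cldn5* with 7 and *Cd34* with 5.

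VEGF and angiopoietin genes summed to 358 against 79.5 CPM (2.17, 1.90 to 2.43), and to a ratio of 1.58 (1.23 to 1.91) without *Flt1*. *Flt4*, the receptor for Vegfc, had 12 UMIs in 9 cells and 32.5 against 1.05 CPM (4.95, 3.80 to 6.04). The co-receptors *Nrp2* (2.18, 1.54 to 2.76) and *Nrp1* (1.46, 0.57 to 2.23) were also at least 2-fold higher. Of the ligands, *Vegfb* had 1.09 (0.27 to 1.81) and *Vegfc*, with 3 UMIs, 2.49 (0.13 to 4.18), while *Vegfa* rested on 5 UMIs in 3 cells and went from 1.26 to -0.03 when 1 cell was left out. All 4 members at 10 CPM over all cells, namely *Flt1*, *Nrp1*, *Nrp2* and *Vegfb*, passed 2-fold.

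Genes that separate arteries from veins gave no single direction. *Notch1* was 1.93 (1.17 to 2.60), and its target *Hey2* had 5 UMIs in 4 cells. *Nrarp*, a Notch feedback gene, had a ratio of 1.67 (0.58 to 2.58). The arterial ligand *Efnb2* had 0.40 (-0.83 to 1.39) and its venous receptor *Ephb4* -0.02 (-1.48 to 1.11). *Aplnr*, the apelin receptor of venous and angioblast cells, stood at 92.2 against 21.6 CPM (2.09, 1.55 to 2.60), whereas its ligands *Apln* (-3.82, from 1 UMI) and *Apela* (-2.09, -3.53 to -0.96) were lower. As lists, arterial genes summed to 0.48 (0.03 to 0.90) and venous and lymphatic genes to 0.73 (0.33 to 1.11), the latter -0.14 (-0.77 to 0.43) without *Aplnr*. Of 7 Notch genes at 10 CPM over all cells, 1 was at least 2-fold higher and 1 lower.

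BMP and TGF-beta pathway genes summed to a ratio of -0.17 (-0.32 to -0.03), and of 12 members at 10 CPM over all cells 2 were at least 2-fold higher and 1 lower. Besides *Bmp2*, the ligand *Tgfb1* (97.6 against 18.4 CPM, 2.41, 1.87 to 2.90) was higher. The co-receptors *Eng* (2.95) and *Tgfbr3* (2.23) and, with 4 UMIs, the receptor *Acvrl1* (3.12, 1.13 to 4.65) also had high ratios. They passed 10 CPM only in the endothelial cells, as did 6 of 18 members at that limit in either group. Their ratios thus follow in part from the limit. The receptors *Bmpr1a* (-0.37) and *Bmpr2* (-0.26) and the ligand *Bmp4* (-0.17) had intervals that included 0. Among BMP targets, *Id2* was lower at 46.1 against 393 CPM (-3.09, -3.87 to -2.41), while *Id1* (-0.39, -0.83 to 0.02) and *Id3* (0.13, -0.11 to 0.36) were not. *Id3* was found in 45 of the 51 cells and *Id2* in 9.

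Matrix and adhesion genes were mostly within 2-fold. Of 22 members at 10 CPM over all cells, 2 were higher and 4 lower, with a median of 0.04. The filament gene *Vim* stood at 328 against 85.8 CPM (1.94, 1.66 to 2.20) and *Fn1*, the fibronectin gene, at 304 against 183 CPM (0.73, 0.45 to 1.001). The basement membrane collagens *Col4a1* (0.29) and *Col4a2* (0.66) and the integrin *Itgb1* (0.84) were less than 2-fold higher. Epithelial adhesion genes were lower, with *Epcam* at 16.3 against 123 CPM (-2.92, -4.37 to -1.79) and *Cdh1*, the E-cadherin gene, at 2 UMIs against 64.2 CPM (-3.57, -6.61 to -1.71).

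**Figure D3:**
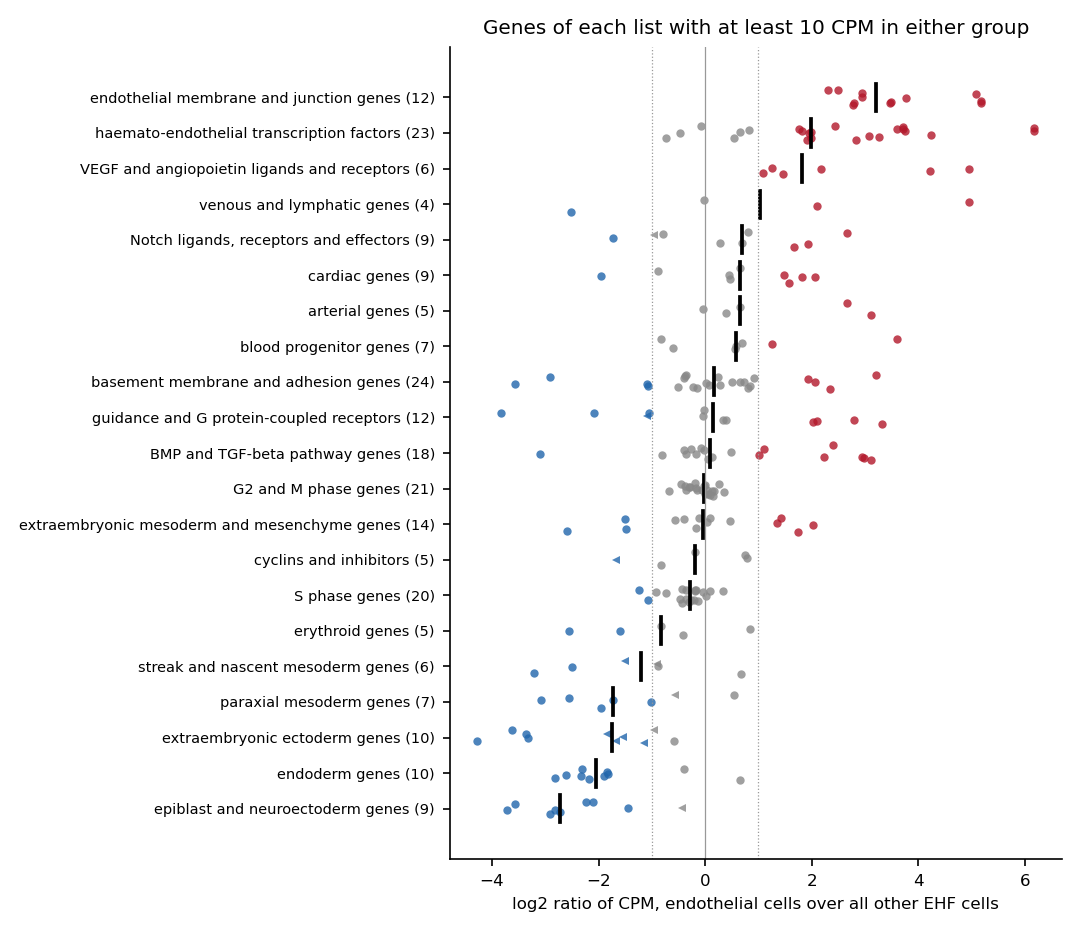
Log2 ratio of CPM of endothelial cells over all other EHF cells (x axis) for each gene with at least 10 CPM in either group, by list (y axis, number of genes in brackets). Black bars are medians, red and blue points lie at least 2-fold higher or lower, and triangles are bounds for genes with no endothelial UMI. Of the 12 membrane genes 10, and of the 23 transcription factors 11, passed 10 CPM only in the endothelial cells, where they are high, so the bars of these lists are no measure of the list as a whole. The cell cycle lists lie near 0, and the lists of epiblast, endoderm and extraembryonic ectoderm lie below -1. Of the 9 epiblast genes 6, and of the 10 extraembryonic ectoderm genes 7, passed 10 CPM only in the other cells, so their bars have the reverse limit.

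The 10 smallest ratios were taken among genes with at least 50 CPM in the other cells. *Cldn6*, a tight junction gene of early epithelia, had 1 UMI in the 51 cells against 115 CPM elsewhere (-5.41, -10.71 to -2.93). *Mt2*, a metallothionein, had 9 UMIs against 468 CPM (-4.26, -5.39 to -3.33). *Ppp1r1a* (-4.59), *Crabp2* (-3.80), *Utf1* (-3.72), *Fabp3* (-3.36), *Sfmbt2* (-3.36) and *Chchd10* (-3.16) followed with 1 to 5 UMIs each. Against mesenchyme cells alone, *Crabp2* (-1.31, -4.44 to 0.71), *Chchd10* (-0.85, -2.55 to 0.49), *Ppp1r1a* (-2.44, -7.80 to 0.18) and *Cdh1* (-1.71, -4.82 to 0.27) had intervals that included 0. Those of *Cldn6*, *Mt2*, *Utf1*, *Fabp3*, *Sfmbt2* and *Id2* lay below 0. Extraembryonic ectoderm cells held 1367 of the 2792 *Fabp3* UMIs of the other cells, 4255 of 9358 for *Mt2* and 3406 of 7860 for *Id2*.

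Marker lists of other cell types were checked in the same way. Epiblast and neuroectoderm genes stood at 119 against 685 CPM (-2.52, -2.98 to -2.10). Of 9 members at 10 CPM over all EHF cells, 8 were at least 2-fold lower, against 11.1% of all genes at that limit. Of the 9, 6 passed 10 CPM only in the other cells, where they are high, so this count follows in part from the limit. Extraembryonic ectoderm genes stood at 106 against 690 CPM (-2.70), and 6 of the 11, including *Ascl2* and *Tfap2c*, had no endothelial UMI. The 21 extraembryonic mesoderm and mesenchyme genes stood at 570 against 499 CPM (0.19, -0.01 to 0.39), from 0 to 2669 CPM per cell. The median of the list's 14 members at 10 CPM in either group was -0.04, with 4 higher and 3 lower, and moved with the cells included. With 2 markers asked for, it was 1.10 with 8 higher and 0 lower, beside 4.87% and 6.35% of all genes. Without the 5 cells with 3 or more *Hand1* UMIs it was -1.61 with 3 higher and 8 lower, beside 8.17% and 11.3% of all genes. Those 5 cells were chosen on a gene that also defines the mesenchyme group. A lower median without them follows in part from that choice. Paraxial mesoderm genes (-1.71) and streak genes (-1.42) were also lower. *Mesp1* and *Eomes*, which mark mesoderm leaving the streak, were among the 7 of 12 streak genes with no UMI in the 51 cells. Only 6 of the 12 reached 10 CPM over all EHF cells, so a count of 0 may also follow from a low level throughout. *T* itself was counted in 14 of the 51 cells at 48.8 against 90.0 CPM (-0.88, -1.64 to -0.22).

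Endoderm transcripts were lower as a list (1627 against 4277 CPM, -1.39, -1.51 to -1.28) but 1 cell stood apart. That cell, with 8500 UMIs and 3 rule markers, held 53 of the 62 *Apoa1* UMIs, 67 of the 85 *Ttr* UMIs and 58 of the 66 *Rbp4* UMIs, all genes of visceral endoderm. Across the 51 cells the summed endoderm level ran from 0 to 27647 CPM around a median of 1102, above the median of 512 in the other cells, whereas the summed level was lower. *Apoe* was counted in 47 cells at 938 against 1230 CPM (-0.39, -0.55 to -0.24). Other ranges were narrower: 0 to 588 CPM per cell for extraembryonic ectoderm genes, 0 to 1056 for epiblast genes and 0 to 2609 for cardiac genes. Without the *Apoa1*-rich cell the median of the endoderm list went from -2.04 to -3.62.

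Blood genes were compared because both lineages share regulators. *Runx1*, required for blood-forming endothelium, had 10 UMIs in 7 of the 51 cells, 4 of them in 1 cell (0.57, -0.50 to 1.47). *Kit* had 8 UMIs in 8 cells (1.25, 0.02 to 2.26). Blood progenitor genes summed to 355 against 203 CPM (0.81, 0.54 to 1.06), and to a ratio of 0.09 (-0.26 to 0.42) without *Hhex*. Of 5 members at 10 CPM over all cells, 1 was at least 2-fold higher and 0 lower. *Car2*, an erythroid and early vascular carbonic anhydrase, was found in 29 cells at 179 against 99.8 CPM (0.84, 0.47 to 1.20). The erythroid list summed to a ratio of 0.05 (-0.26 to 0.34), and to -0.98 (-1.58 to -0.43) without *Car2*. Of the 7 *Runx1*-positive cells, 6 also held *Tal1*. Myeloid markers were near 0, with 4 UMIs over 5 genes. Megakaryocyte and platelet genes summed to 496 against 256 CPM (0.96, 0.74 to 1.17). *Rap1b* had the most of these UMIs, and without it the list stood at 1.35 (-0.56 to 2.76). *Gp1bb* and *Plek* of this list had no endothelial UMI.

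The 245 other *Gata1*-positive cells had fewer than 3 markers and under 1% globin UMIs, and 41 of them also met the definition of the extraembryonic ectoderm group. Against these cells the shared regulators differed least among the leading genes. *Lmo2* stood at 437 against 263 CPM (0.73, 0.46 to 0.997) and *Tal1* at 176 against 80.5 CPM (1.13, 0.68 to 1.57). *Fli1* (1.79) and *Hhex* (1.79) lay further apart, and *Flt1* (3.84), *Ecscr* (4.06), *Rgs3* (4.36) and *Sox7* (4.43) furthest. In this comparison 12.1% of 8103 genes were at least 2-fold higher in endothelial cells and 9.07% lower. The 7 *Gata1*-positive cells with 3 or more markers had 732 CPM of *Lmo2*, above the endothelial cells (-0.75, -1.25 to -0.21), and 311 CPM of *Hapln1* (-1.23, -2.05 to -0.34), while *Sox7* had no UMI in them. These values rest on 7 cells.

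Extraembryonic mesoderm and mesenchyme cells, taken as the 217 cells with at least 3 of *Hand1*, *Foxf1*, *Bmp4*, *Pitx1*, *Tbx4* and *Ahnak* and at most 1 endothelial marker, were compared as mesoderm without *Gata1*, and 13 of them also met the definition of the extraembryonic ectoderm group. Genes with fewer counts had larger ratios against them, such as *Tal1* (7.17, 5.26 to 10.2, from 2 mesenchyme UMIs) and *Fli1* (5.98, 4.55 to 7.90). Where a total of 100 UMIs and a UMI in 20% of the endothelial cells were required, *Lmo2* led (437 against 14.7 CPM, 4.89, 4.27 to 5.58). *Rasgrp2*, a Rap1 activator, followed with 258 against 14.1 CPM (4.19, 3.52 to 4.92), then *Gadd45g*, a growth arrest gene, with 244 against 36.1 CPM (2.76, 2.27 to 3.26), and *Egfl7* with 2.69. *Phlda1* (2.07) and *Car2* (1.98) were also higher. *Spink1* (1.89) and *Ttr* (1.88) ranked next, but 71 of 104 and 67 of 85 UMIs lay in 1 cell, and without the top cell they stood at 0.27 and -0.32. Lower were the Wnt feedback gene *Nkd1* (-3.54), the BMP-responsive factor *Msx2* (-3.39), *Arl4c* (-2.93) and *Apela* (-2.54), with *Mt2* at -2.48. *Pitx1*, *Foxf1* and *Bmp4* were lower as well, but they had served to choose the mesenchyme cells. Of 8136 genes, 7.89% were at least 2-fold higher and 10.7% lower.

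The endothelial cells differed among themselves. A set of endothelial genes outside the rule, namely the 55 genes of the transcription factor and membrane lists, was counted per cell after thinning to 2000 UMIs. The mean number detected was 0.661 in cells with no marker, 0.889 with 1, 2.43 with 2, 3.52 with 3, 4.62 with 4 and 7.40 with 5. The number of markers itself was read from full counts and moves with depth, since the cells with 4 markers had a median of 8720 UMIs against 5760 for those with 3. Thinned endothelial cells ranged from 0 to 10 such genes, with a median of 4, where other cells had a median of 1. Cells with 2 markers overlapped this range, from 0 to 8.

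**Figure D4:**
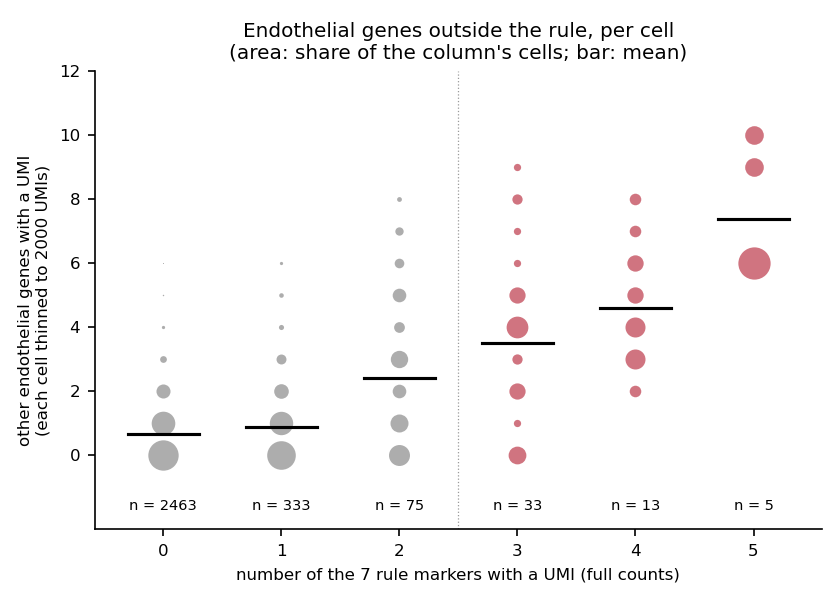
Number of endothelial genes outside the rule with a UMI in each cell after thinning to 2000 UMIs (y axis), by the number of rule markers in the full counts (x axis), for EHF cells without *Gata1* and with few globins. Circle area is the share of the column's cells, red columns meet the rule and black bars are means, which go from 0.661 without a marker to 7.40 with 5.

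*Hand1* marked a minority. It was counted in 10 of the 51 cells, and 5 held at least 3 UMIs of it, a group singled out after its values were seen. None of those 5 had a UMI of *Tal1* or *Lmo2*, which were found in 31 and 40 of the 51 cells. In full counts the 5 cells had a median of 3 endothelial genes outside the rule against 9.5 in the other 46, at medians of 5854 and 5907.5 UMIs. One of them was the deepest cell of the library, with 13 of the 36 *Hand1* UMIs. *Myl7*, a myosin light chain of the forming heart, was counted in 23 cells, but 30 of its 95 UMIs lay in 1 cell (2.07, and 1.57 without it). The other cardiac genes summed to 0.40 (-0.03 to 0.80). *Pmp22*, a membrane gene of the mesenchyme list, likewise had 36 of 58 UMIs in 1 cell (1.43, and 0.18 without it).

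The 41 cells with an *Etv2* UMI were set against the 10 without. By the rule, a cell without *Etv2* must hold 3 of the other 6 markers, so higher *Cdh5* (116 against 29.2 CPM) and *Tek* (199 against 74.6 CPM) in those 10 cells is a description. *Tal1* (-0.06, -1.01 to 1.03) and *Lmo2* (-0.10, -0.70 to 0.54) had intervals that included 0. *Fli1* was lower in the cells with *Etv2*, at 130 against 281 CPM (-1.12, -1.97 to -0.21). *Krt18* was higher, at 535 against 99.3 CPM (2.43, 1.28 to 3.90), and *Csrp2*, with 72 UMIs against none, was at least 2.23 higher on the log2 scale. Of 1164 genes with 50 or more UMIs, 4.47% were at least 2-fold higher and 0.687% lower. These differences depended on how *Etv2* was called: with the call made on thinned counts, 21 cells had *Etv2* and 30 did not, *Fli1* stood at 0.53, *Krt18* at -1.43 and *Csrp2* at -0.50. The direction of these 3 genes thus turned with the call.

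Proliferation genes were close to the rest of the embryo. The 21 G2 and M phase genes summed to a ratio of -0.02 (-0.09 to 0.05), and none was 2-fold apart. The 20 S phase genes summed to -0.28 (-0.39 to -0.17), with *Ccne1* at -1.23 (-1.93 to -0.62) and *Chaf1b* at -1.08 (-2.29 to -0.09) past 2-fold. The D cyclins *Ccnd3* (0.78, 0.47 to 1.07) and *Ccnd1* (0.74, 0.33 to 1.13) were higher by less than 2-fold. *Cdkn1a*, the p21 inhibitor, had no UMI in the 51 cells against 25.8 CPM in the others.

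Transcripts of the reporter were followed to see how many endothelial cells carried the label of *T*-driven recombination. A tdTomato UMI was found in 4 of the 51 cells (7.84%, 2.18 to 18.9%), in 11.6% of the other EHF cells (10.5 to 12.7%) and in 1.35% of the extraembryonic ectoderm cells. Thinned to 2000 UMIs, the shares were 5.88% (1.23 to 16.2%), 6.22% and 1.03%. Endothelial cells had 16.3 CPM (5.97 to 35.4) of the reporter, the mesenchyme cells 25.7 CPM and the other *Gata1*-positive cells 5.66 CPM. With 4 positive cells, no difference from the other cells was detectable. Of the 51 cells, 29 held *Xist* without Y-linked transcripts and 7 the reverse, so embryos of both sexes contributed.

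The same rule was applied to the earlier stages, whose tables do not list *Tie1*. It found 7 of 3635 MS-LS cells (0.193%, 0.0775 to 0.396%) and 8 of 3994 OB-EB cells (0.200%, 0.0865 to 0.394%), against 1.46% at EHF. The libraries differ in depth, and after thinning to 1500 UMIs the rule found 0 of 3534, 1 of 3588 and 7 of 3329 cells, or 0%, 0.0279% and 0.210% (0.0846 to 0.433%). The thinned EHF interval overlapped those of MS-LS (0 to 0.104%) and OB-EB (0.000706 to 0.155%). With 2 markers in place of 3, the shares were 3.33% at MS-LS, 1.88% at OB-EB and 3.63% at EHF. EHF was thus highest with 2 and with 3 markers, but stood close to MS-LS with 2. The order of MS-LS and OB-EB changed, and their intervals with 3 markers overlapped.

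Leading EHF genes were then read in the few early cells. These cells were deep, with medians of 9864 UMIs at MS-LS and 6429 at OB-EB against library medians of 4251 and 2620.5. At MS-LS 1 cell, the deepest of its library, held 28986 of the 78053 UMIs of the 7 cells. *Lmo2* stood at 384 CPM in the 7 MS-LS cells against 11.4 CPM in the other cells of that library (5.07, 4.47 to 5.63), and at 721 against 17.1 CPM in the 8 OB-EB cells (5.40, 4.86 to 5.91). *Fli1* had ratios of 6.03 (4.85 to 7.08) and 5.22 (4.29 to 6.04), and *Flt1* of 2.80 (1.47 to 3.87) and 3.46 (1.99 to 4.62). *Tal1* had 1 UMI in the MS-LS cells and 5 in the OB-EB cells (5.12, 3.41 to 6.48), while *Hhex* had 0.44 (-2.61 to 2.31) and 3.65 (2.68 to 4.48). *Hapln1* had 6 UMIs in the OB-EB cells, all in 1 cell (4.56, 3.06 to 5.77). Of the 15 leading EHF genes, 6 had intervals above 0 at MS-LS and 8, with *Hapln1* among them, at OB-EB, and 2 and 4 had no UMI in the cells concerned. Of all genes with a UMI in those cells, 6.78% of 7611 had an interval above 0 at MS-LS and 7.17% of 6385 at OB-EB, or 3.1% and 2.8% of all genes with a UMI in the library. *Sox7*, *Dusp2*, *Fam43a* and *Rgs3* had no UMI among the 51307 of the 8 OB-EB cells, which allows log2 ratios up to 4.59, 5.30, 3.96 and 3.70, above those at EHF.

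**Figure D5:**
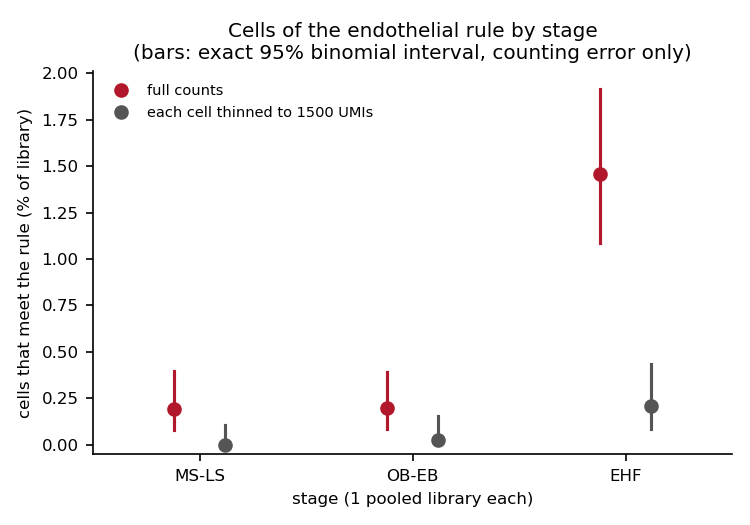
Share of each library's cells that met the endothelial rule (y axis, %) at the 3 stages (x axis), in full counts (red) and after thinning each cell to 1500 UMIs (grey). Bars are exact binomial 95% intervals for counting error only. The EHF share is 1.46% in full counts and 0.210% after thinning, and the thinned EHF interval overlaps those of both MS-LS and OB-EB.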

How the data were processed

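Single-cell RNA was sequenced by droplet capture (10x Genomics 3′ chemistry) in 1 pooled library per stage. The deposited tables hold raw UMI counts per gene and cell, made by the authors with Cell Ranger 3.0.2 on mouse GRCm38 with the reporter vector sequence added, with R 3.6.1 and Seurat 3 named in their processing notes, and after their filters on genes, UMIs and mitochondrial share. A second EHF table with the same counts at every place was counted once as 1 sample.

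The 51 cells were selected on measured counts of 11 genes, and the rule and the gene lists were chosen with earlier results of these data known. UMIs were summed over cells and divided by the group's total to give CPM. Log2 ratios have the exact conditional 95% interval of 2 Poisson sums, shares have exact Clopper-Pearson intervals, and single levels have exact Poisson intervals. A gene with no UMI in 1 group stands at its bound against a floor of 3 UMIs. A gene was called at a fold of 2 or more, after a minimum of 10 CPM. With 1 library per stage there was no test. The 15 largest and 10 smallest ratios were named among genes with at least 100 UMIs, and a UMI in at least 20% of endothelial cells (largest) or at least 50 CPM in the other cells (smallest). The 8 largest and 8 smallest against mesenchyme followed the same filters, and for the *Etv2* groups the minimum was 50 UMIs. Mitochondrial, ribosomal protein, sex-linked and reporter genes were left out of rankings. Other genes named belong to the lists. Thinning drew UMIs without replacement to 2000 per cell, or 1500 between stages, with seed 1. Doublets were kept, and Scrublet scores (scanpy 1.11.5) served as a check. Python 3.11.15, numpy 2.4.6, scipy 1.17.1 and matplotlib 3.10.9 were used, and the ratios and thinning were tested on simulated data. Alternatives covered the number and choice of markers, the minimum CPM, a pseudocount, the totals, and leaving out single cells. 1 list of endothelial genes is not reported here.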

Additional observations from a re-analysis of the deposited data

Results flagged for a closer look

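Transcribed parts of the reporter vector other than the tdTomato sequence were counted in the endothelial cells although no comparison used them, and this alone placed them here. The chimeric intron had 8 UMIs in 7 of the 51 cells (13.7%, 5.70 to 26.3%) against 8.57% of the other EHF cells. The SV40 poly(A) signal had 5 UMIs in 5 cells (9.80%) against 4.39%, and the neomycin and kanamycin resistance gene had 10 UMIs in 8 cells (15.7%, 7.02 to 28.6%) against 11.2%. The log2 ratios of endothelial over other cells were 0.44 (-0.78 to 1.44), 0.83 (-0.82 to 2.08) and 0.39 (-0.68 to 1.28), so counting error covered each difference.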

How the results depend on the processing

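Counts of cells and genes moved with the rule and with the minimum level. The rule found 127 cells with 2 of 7 markers, 18 with 4 of 7, 23 without *Kdr* among the markers, 25 without *Etv2* and 14 after thinning to 2000 UMIs, against 51. Genes at least 2-fold higher than in other EHF cells (656) numbered 1844 with at least 2 CPM or no minimum, 121 with at least 50 CPM, 213 with a pseudocount of 10 CPM, 387 with 2 of 7 markers, 1142 with 4 of 7, 246 with 10 CPM over all EHF cells and 415 without the top cell of each gene. Genes at least 2-fold lower (835) numbered 129 with at least 50 CPM, 358 with the pseudocount, 504 with 2 of 7 markers and 1271 without the top cell of each gene. At 50 CPM, 172 were higher and 124 lower than in other *Gata1*-positive cells, and 102 higher and 131 lower than in mesenchyme. The number of cells and of genes tested changed with these settings.

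Medians over genes at 10 CPM in either group rest in part on genes that passed only in the endothelial cells. That of the membrane genes (3.21) was 2.95 with 2 CPM or no minimum, 2.80 with 50 CPM, 3.00 with totals without mitochondrial and ribosomal protein genes, 1.32 with the pseudocount, 2.93 with 2 of 7 markers, 3.68 with 4 of 7, 2.94 without the highest Scrublet scores, 2.78 with 10 CPM over all cells, 3.44 without the cells with 3 or more *Hand1* UMIs and 2.87 without the top cell of each gene. That of the transcription factors (1.996) was 2.37 as a mean over cells, 3.34 with 50 CPM, 1.27 with the pseudocount, 1.53 and 2.82 with 2 and 4 of 7 markers, 2.15 without the deepest cell and 2.25 without the *Hand1* cells. Both medians stayed above 0 in these settings. The venous and lymphatic median (1.04) turned to -0.0237 with 2 CPM and with 10 CPM over all cells, and to -0.0118 with no minimum.

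Stage shares with 2 of 7 markers were 3.33% at MS-LS, 1.88% at OB-EB and 3.63% at EHF. With 4 of 7 they were 0.0825% at MS-LS, 0% at OB-EB and 0.515% at EHF, and thinned to 1500 UMIs 0%, 0.0279% and 0.210%. With *Etv2* called on thinned counts, 3 genes in place of 52 were at least 2-fold higher in its positive cells, and *Pmp22* stood at -1.76, *Rbp4* at -3.77, *Apoa1* at -3.61, *Krt18* at -1.43, *Csrp2* at -0.50, *Car4* at -1.08, *H1f0* at 0.21 and *Fli1* at 0.53. The cause was not tested. Of the checks on results that answer a comparison directly, 48 moved and 69 did not. Among results that answer no comparison directly, 87 moved, 298 did not and 11 reversed. Counts moved when they changed by more than a fixed factor, and shares and ratios when they left their interval. List medians were held to the width of the interval of the list's summed ratio, which is no interval of the median.

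No paired analysis was possible because each stage was 1 library. Embryos were pooled, so variation between embryos was not measured, and the 368686 endothelial UMIs limit detection to genes near 10 CPM. Replicates could not be left out in turn.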
